A study of Mus musculus with 8 samples.

Results

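The sensing of lipopolysaccharide and other microbial products was followed through 10 genes, Tlr1, Tlr2, Tlr4, Tlr6, Tlr7, Tlr13, Lbp, Cd14, Ly96 and Myd88, in CD11b+Gr-1+ myeloid cells of mouse colon tumors and bone marrow. The genes were taken by name, and every probe set annotated to 1 of them alone was read. This gave 16 probe sets of the 45101 on the array, 4 for Tlr4, 3 for Tlr7, 2 for Lbp and 1 for each of the other genes, and 0 probe sets shared with another gene. For genes with several probe sets, the one with the highest mean over the 8 arrays stood for the gene. All 10 genes were among the 8174 of 18194 that reached log2 5 on at least 2 arrays and were tested.

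Toll-like receptors are membrane proteins that bind conserved parts of microbes and start inflammatory transcription. At the cell surface TLR2 pairs with TLR1 or TLR6 to bind bacterial lipopeptides, while TLR4, held with its partner MD-2, the product of Ly96, binds lipopolysaccharide that Lbp and Cd14 have handed over. TLR7 and the mouse receptor TLR13 read RNA in endosomes, and all of these receptors signal through the adaptor Myd88.

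Cells came from C57BL/6J mice of 2 genotypes, both carrying the HDC-EGFP transgene, whose green fluorescence reports Hdc, the gene of the histamine-making enzyme. The pool labelled HDC-KO tumor and the wild-type (HDC-EGFP) tumor pool were each made from 5 mice, 7 months old. Those mice had been given a single dose of the carcinogen azoxymethane and then 10 days of dextran sodium sulfate, an agent that damages colon epithelium, and 10 to 12 tumors were collected 22 to 24 weeks later. The HDC-KO (HDC-EGFP/HDC-KO) and wild-type (HDC-EGFP) bone marrow cells were each from 3 mice, 3 to 4 months old, with no carcinogen named, and are described as HDC-expressing, a gate not named for the tumor cells. Each group was 1 RNA pool on 2 technical arrays, as the labels state for tumor and leave unsaid for bone marrow. Adjusted p-values (limma, Benjamini-Hochberg) are therefore read as setting pools against technical spread, and not as covering the spread between mice. Tissue, age, treatment and gate differ together between tumor and bone marrow and cannot be told apart. In such pools, fewer cells of a type and less RNA per cell cannot be told apart either.

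Hdc averaged 9.83 in HDC-KO and 13.18 in wild-type bone marrow (log2 GCRMA value), which was 10.2-fold lower (limma, adjusted p = 1.47e-06). In tumor it averaged 13.03 in the pool labelled HDC-KO and 13.24 in wild type, a log2 difference of -0.21 ± 0.0547 (SE), so Hdc did not bear out that label, and every direction drawn from the pool rests on the label alone. Itgam, which encodes CD11b, read at least 11.21 on all 8 arrays, and none of the 8 measured mature neutrophil markers was under log2 5 in any pool. Ly6g, an antigen of the Gr-1 antibody, was not analysed here. On each array 30.3% to 31.8% of probe sets lay at or above log2 5, a level taken here as the edge of background, and the technical arrays of a pool correlated at 0.995 to 0.998 across the tested genes. The number of arrays limits the precision.

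**Figure D1:**
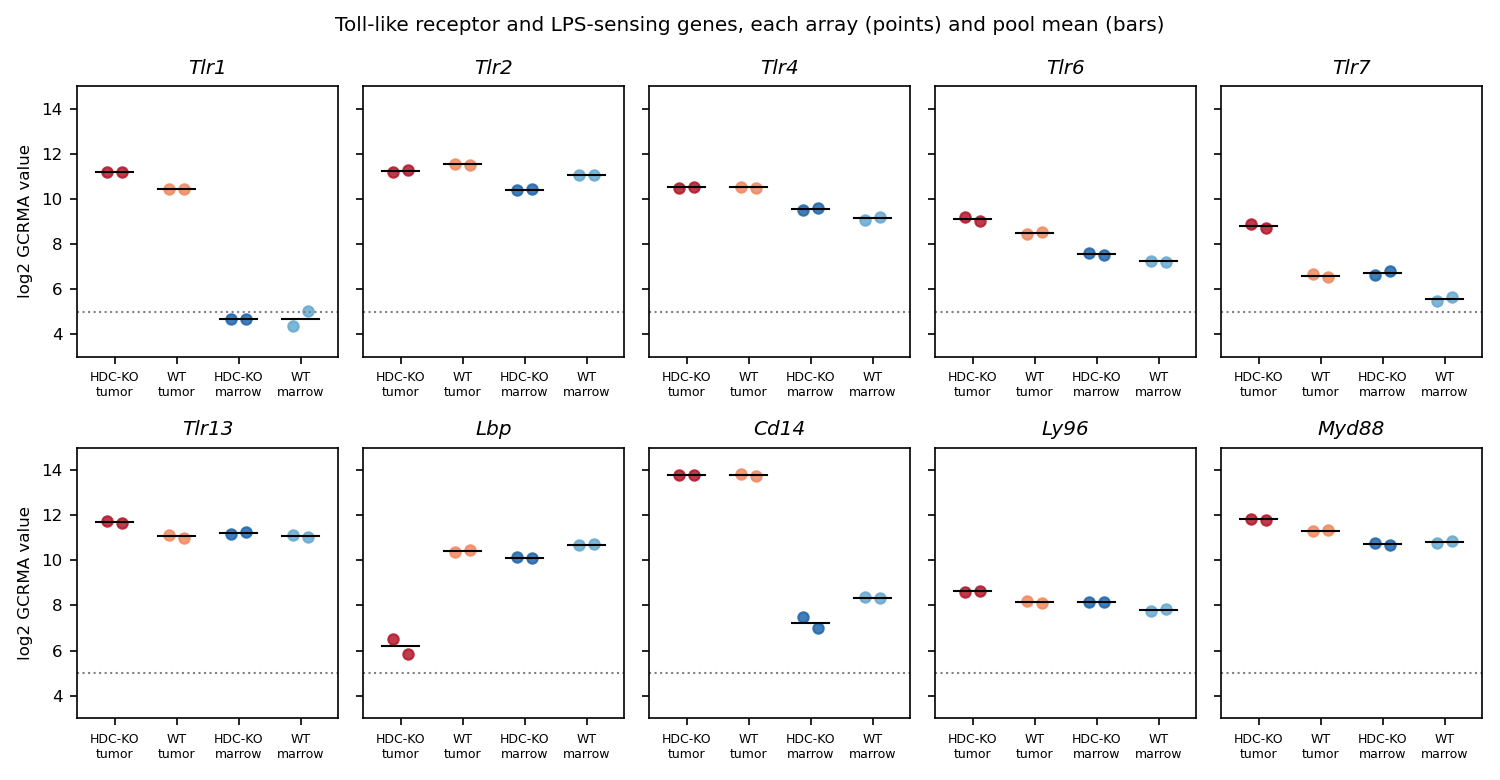
Log2 GCRMA value (vertical axis) of each gene on each array, with 1 point per array, a bar at the pool mean of 2 technical arrays and a dotted line at log2 5. Tlr1 and Cd14 stood far higher in both tumor pools than in both bone marrow pools, Lbp was low in the pool labelled HDC-KO tumor, at 6.53 and 5.87, and Tlr7 was highest there, at 8.88 and 8.72.

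Among the lipopeptide receptors, Tlr1 and Tlr6 were highest in the pool labelled HDC-KO tumor and Tlr2 in wild-type tumor, with bone marrow under tumor for each. Tlr2 encodes the partner shared by the pairs. It read 11.20 and 11.26 in the pool labelled HDC-KO tumor, against 11.56 and 11.50 in wild-type tumor. The HDC-KO bone marrow arrays read 10.38 and 10.44, against 11.07 and 11.07 in the wild-type pool. Tlr2 was thus high in every pool, the wild-type pool was the higher of each pair, and no pools overlapped. The log2 difference was -0.30 in tumor (1.23-fold lower, limma adjusted p = 0.00254) and -0.66 ± 0.0537 (SE) in bone marrow (1.58-fold lower, adjusted p = 0.000591), both under the 2-fold threshold. Tumor against bone marrow gave 0.82 in HDC-KO and 0.46 in wild type, also under 2-fold.

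Tlr1, whose product joins TLR2 to bind triacylated lipopeptides, was at background in bone marrow and high in tumor. The arrays read 11.18 and 11.20 in the pool labelled HDC-KO tumor and 10.45 and 10.44 in wild-type tumor. In bone marrow they read 4.67 and 4.66 in the HDC-KO pool and 4.35 and 5.03 in the wild-type pool. Every tumor array therefore lay more than 5 log2 units above every bone marrow array, and the bone marrow pools overlapped around background. Tumor exceeded bone marrow at least 73.0-fold in HDC-KO (log2 difference 6.52 ± 0.199 SE, limma adjusted p = 5.76e-07) and at least 43.5-fold in wild type (5.76 ± 0.199, adjusted p = 3.22e-06). Between the tumor pools Tlr1 was 1.68-fold higher in the pool labelled HDC-KO (log2 difference 0.75, adjusted p = 0.0144), under the threshold, and the bone marrow pools differed by -0.02 ± 0.199.

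Tlr6, whose product joins TLR2 to bind diacylated lipopeptides, differed less. It read 9.21 and 9.01 in the pool labelled HDC-KO tumor, against 8.43 and 8.53 in wild-type tumor. HDC-KO bone marrow gave 7.60 and 7.49, against 7.26 and 7.20 in the wild-type pool. The 4 pools stood in that order without overlap, with tumor over bone marrow and HDC-KO over wild type in each tissue. The rise in tumor was 2.97-fold in HDC-KO (log2 difference 1.57, limma adjusted p = 6.17e-06) and 2.38-fold in wild type (1.25 ± 0.0838 SE, adjusted p = 5.86e-05). The genotype differences were 0.63 in tumor (limma adjusted p = 0.000669) and 0.31 in bone marrow (adjusted p = 0.0458), both under 2-fold.

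Promoter windows are shown for these 3 genes because their proteins form the pairs. The windows hold the 250 bases before an annotated transcription start, from RefSeq on GRCm38.p6, 5′ to 3′ along the gene, with motif matches in capitals. Tlr1 and Tlr6 lie on the minus strand of chromosome 5 and each had a second window, without a match, that is not shown.
Tlr2, chr3:83841609-83841858, minus strand: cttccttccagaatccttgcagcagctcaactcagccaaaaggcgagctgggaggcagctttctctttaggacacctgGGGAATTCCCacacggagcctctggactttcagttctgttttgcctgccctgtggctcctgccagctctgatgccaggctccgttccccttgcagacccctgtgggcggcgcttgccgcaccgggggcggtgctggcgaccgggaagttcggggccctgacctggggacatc
Tlr1, chr5:64933559-64933808, minus strand: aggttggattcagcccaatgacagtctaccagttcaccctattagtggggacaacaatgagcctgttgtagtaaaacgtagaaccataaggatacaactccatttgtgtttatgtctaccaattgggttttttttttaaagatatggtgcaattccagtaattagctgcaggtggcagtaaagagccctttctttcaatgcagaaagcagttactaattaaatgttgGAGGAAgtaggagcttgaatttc
Tlr6, chr5:64959167-64959416, minus strand: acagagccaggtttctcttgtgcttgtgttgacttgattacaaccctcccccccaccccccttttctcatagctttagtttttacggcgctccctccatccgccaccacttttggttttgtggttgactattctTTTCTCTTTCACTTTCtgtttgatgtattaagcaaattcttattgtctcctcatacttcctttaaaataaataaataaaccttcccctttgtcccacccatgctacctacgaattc
Both strands were searched for 4 motifs. These were GGGA and CC with any 4 bases between them for NF-kappa-B, GAGGAA for the core of the myeloid factor PU.1, GAAA repeated after any 2 bases for the interferon-stimulated response element, and TGANTCA for AP-1. The Tlr2 window held 1 NF-kappa-B match, 172 bases before the start. The Tlr1 window held 1 PU.1 core, 23 bases before the start, and the Tlr6 window 2 overlapping interferon-type matches. Of 32851 such windows of all genes, 17.6% held an NF-kappa-B match, 23.3% a PU.1 core, 2.98% an interferon-type match and 6.75% an AP-1 match. Windows were on hand for 5 of the 10 genes, and among their 7 windows were further matches in those of Tlr13 (PU.1 core) and Myd88 (interferon type) and 0 with AP-1. A match describes these letters and is not evidence of a bound site.

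The lipopolysaccharide receptor complex differed most between pools in Cd14 and Lbp. Cd14 encodes the coreceptor that passes lipopolysaccharide to TLR4 and MD-2. Its arrays read 13.77 and 13.80 in the pool labelled HDC-KO tumor and 13.81 and 13.74 in wild-type tumor, which overlapped. In bone marrow they read 7.48 and 6.98 in the HDC-KO pool, against 8.38 and 8.32 in the wild-type pool, so HDC-KO was lower without overlap. Tumor was 94.2-fold over bone marrow in HDC-KO (log2 difference 6.56 ± 0.151 SE, limma adjusted p = 2.08e-07) and 43.1-fold in wild type (5.43 ± 0.151, adjusted p = 1.31e-06). In bone marrow Cd14 fell 2.18-fold in HDC-KO (log2 difference -1.12 ± 0.151, adjusted p = 0.00433). Without HDC-KO bone marrow array 2, the lower of that pool, the difference was -0.87 and the call was lost. The tumor pools differed by 0.01 ± 0.151.

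Lbp encodes the binding protein that lifts single lipopolysaccharide molecules from bacteria, and is best known as a protein of plasma made by the liver. It read 6.53 and 5.87 in the pool labelled HDC-KO tumor, against 10.38 and 10.48 in wild-type tumor. In bone marrow it read 10.16 and 10.09 in the HDC-KO pool, against 10.67 and 10.71 in the wild-type pool. The pool labelled HDC-KO tumor stood alone, more than 3 log2 units under each array of the other 3 pools, and no pools overlapped. Lbp fell 18.8-fold there against wild-type tumor (log2 difference -4.23 ± 0.198 SE, limma adjusted p = 7.78e-06) and 15.1-fold against HDC-KO bone marrow (-3.92 ± 0.198, adjusted p = 4.76e-06). These comparisons share the pool labelled HDC-KO tumor. The wild-type tumor and bone marrow pools differed by -0.26 ± 0.198 (adjusted p = 0.298), and the bone marrow pools by -0.57 ± 0.198 (adjusted p = 0.0952).

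The other Lbp probe set gave the same ranking of the lowest pool at a lower brightness. Its arrays read 3.79 and 4.10 in the pool labelled HDC-KO tumor and 5.71 and 6.08 in wild-type tumor. In bone marrow they read 5.29 and 4.83 in the HDC-KO pool and 6.15 and 5.81 in the wild-type pool. The pool labelled HDC-KO tumor was again the lowest, now under background, and its log2 difference from wild-type tumor was -1.95 ± 0.218 (SE, limma adjusted p = 0.000304, at least 1.86-fold lower). Against HDC-KO bone marrow it was -1.11 (limma adjusted p = 0.00315), a fall bounded at only 1.04-fold or more. The bone marrow pools differed by -0.92 on this probe set (limma adjusted p = 0.0322), under 2-fold, and the wild-type pools by -0.08.

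Tlr4, the receptor for lipopolysaccharide itself, read 10.50 and 10.51 in the pool labelled HDC-KO tumor, against 10.54 and 10.48 in wild-type tumor. It read 9.52 and 9.61 in HDC-KO bone marrow, against 9.08 and 9.19 in the wild-type pool. The tumor pools overlapped and both lay over the bone marrow pools. Tumor was 1.92-fold over bone marrow in HDC-KO (log2 difference 0.94, limma adjusted p = 1.7e-05) and 2.60-fold in wild type (1.38 ± 0.0627 SE, adjusted p = 9.89e-06), so that the call was made in wild type alone, where averaging its 4 probe sets gave 0.69 and no call. The HDC-KO and wild-type steps themselves differed by -0.44 (interaction, adjusted p = 0.00541). HDC-KO bone marrow was 1.35-fold over wild type (0.43, adjusted p = 0.00573), under the threshold, and the tumor pools differed by -0.01 ± 0.0627.

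The Tlr4 probe sets did not give a single answer. The second brightest averaged 9.42 in the pool labelled HDC-KO tumor and 9.49 in wild-type tumor, much as the leading one did. In contrast the third read 6.23 and 6.52 in the pool labelled HDC-KO tumor, against 7.99 and 7.64 in wild-type tumor, a log2 difference of -1.44 ± 0.15 (SE, limma over probe sets, adjusted p = 0.000221, 2.71-fold lower). Between the bone marrow pools the third also ran against the leading one, at 7.09 and 6.90 in HDC-KO and 7.65 and 7.62 in wild type (-0.63, adjusted p = 0.032), while the second gave 0.09 (adjusted p = 0.469). For tumor against bone marrow in HDC-KO the third was again lower in tumor (-0.62, adjusted p = 0.00811), where the first and second were higher, at 0.94 and 0.85. In wild type it gave 0.18 (adjusted p = 0.331), and the second 1.01. The fourth lay under background on every array. Which part of the Tlr4 transcripts each probe set reads was not analysed here.

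Ly96 encodes MD-2, the part of the complex that holds the lipid. It read 8.58 and 8.65 in the pool labelled HDC-KO tumor, against 8.18 and 8.09 in wild-type tumor. The HDC-KO bone marrow arrays both gave 8.15, against 7.74 and 7.84 in the wild-type pool. HDC-KO was the higher in each tissue, wild-type tumor overlapped HDC-KO bone marrow, and all 4 pool means lay within 0.83 log2 units. Its differences were 0.48 between the tumor pools (1.39-fold, limma adjusted p = 0.000598) and 0.36 between the bone marrow pools (1.29-fold, adjusted p = 0.0105). Tumor against bone marrow gave 0.46 in HDC-KO and 0.35 in wild type, so that none of the 4 passed 2-fold.

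**Figure D2:**
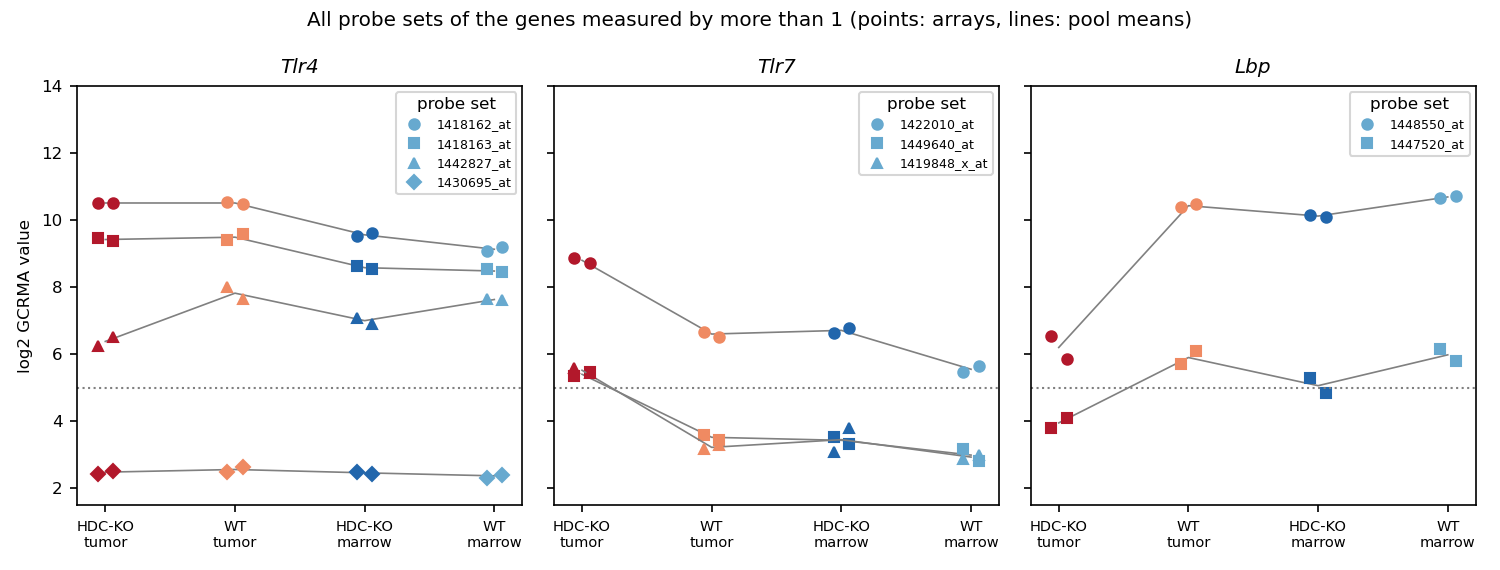
Log2 GCRMA values (vertical axis) of every probe set of Tlr4, Tlr7 and Lbp, with points for arrays, lines joining pool means and a dotted line at log2 5. The Tlr4 probe set drawn as triangles is low in the pool labelled HDC-KO tumor, at 6.23 and 6.52, where those drawn as circles and squares are level with wild-type tumor, and the probe sets of Tlr7 and of Lbp each keep the same highest or lowest pool.

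Among the endosomal receptors Tlr7 was called in each of the 4 comparisons and Tlr13 in none. Tlr7, which binds single-stranded RNA, read 8.88 and 8.72 in the pool labelled HDC-KO tumor, against 6.67 and 6.52 in wild-type tumor. In bone marrow it read 6.63 and 6.79 in the HDC-KO pool, against 5.46 and 5.65 in the wild-type pool. HDC-KO was higher in each tissue without overlap, and the wild-type tumor arrays overlapped those of HDC-KO bone marrow. Tlr7 rose 4.60-fold between the tumor pools (log2 difference 2.20 ± 0.103 SE, limma adjusted p = 7.74e-06) and 2.23-fold between the bone marrow pools (1.16 ± 0.103, adjusted p = 0.000839). Tumor was 4.25-fold over bone marrow in HDC-KO (2.09, adjusted p = 4.29e-06) and 2.06-fold in wild type (1.04 ± 0.103, adjusted p = 0.000314).

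The Tlr7 calls differed in how firmly they held. The bone marrow genotype difference was 0.71, under the threshold, as the mean of the 3 probe sets. The wild-type tumor difference from bone marrow, close to 2-fold, was 0.95 without wild-type bone marrow array 1, 0.97 without wild-type tumor array 1 and 0.62 as the mean of probe sets, each under the threshold. The other 2 probe sets were over log2 5 on average in the pool labelled HDC-KO tumor alone, at 5.40 and 5.52, against 3.52 and 3.22 in wild-type tumor. They gave log2 differences of 1.88 ± 0.14 and 2.30 ± 0.221 (SE) between the tumor pools, at least 1.32-fold and 1.43-fold, and 0.44 and 0.52 between the bone marrow pools, where both means were under background.

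Tlr13, which in mice recognises ribosomal RNA of bacteria, read 11.73 and 11.64 in the pool labelled HDC-KO tumor, against 11.11 and 11.01 in wild-type tumor. Bone marrow values were 11.17 and 11.27 in the HDC-KO pool, against 11.13 and 11.05 in the wild-type pool. The pool labelled HDC-KO tumor was the highest, wild-type tumor and wild-type bone marrow overlapped, and the 4 pool means spanned 0.62 log2 units, the narrowest range of the 10 genes. The tumor pools differed by 0.62 ± 0.0671 (SE, 1.54-fold, limma adjusted p = 0.000259), under the threshold. The other differences were 0.13 ± 0.0671 between the bone marrow pools, and 0.46 in HDC-KO and -0.03 in wild type for tumor against bone marrow.

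Myd88, the shared adaptor, read 11.85 and 11.78 in the pool labelled HDC-KO tumor, against 11.30 and 11.34 in wild-type tumor. In bone marrow it read 10.78 and 10.67 in the HDC-KO pool, against 10.78 and 10.85 in the wild-type pool. Both tumor pools stood over both bone marrow pools, and the bone marrow pools were close. Tumor was 2.13-fold over bone marrow in HDC-KO (log2 difference 1.09 ± 0.0609 SE, limma adjusted p = 7.65e-06) and 1.42-fold in wild type (0.50, adjusted p = 0.000758), of which the HDC-KO one passed the threshold. The steps themselves differed by 0.59 (interaction, adjusted p = 0.00139). The tumor pools differed by 0.49 (1.41-fold, adjusted p = 0.000463) and the bone marrow pools by -0.09 ± 0.0609.

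**Figure D3:**
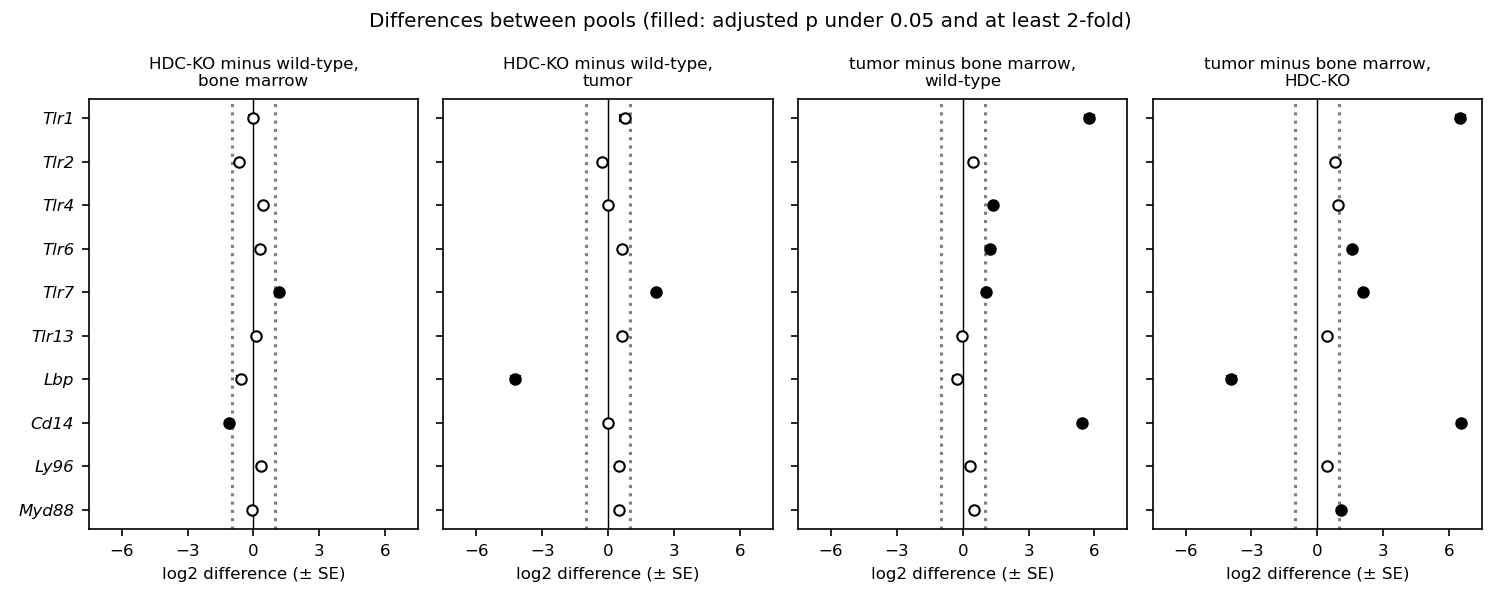
Log2 difference with its limma standard error (horizontal axis) for the 10 genes in the 4 comparisons, filled where the adjusted p was under 0.05 and the difference at least 2-fold, with dotted lines at 2-fold. The calls are Tlr7 and Cd14 in bone marrow, Tlr7 and Lbp in tumor, and 6 and 5 genes between tumor and bone marrow in HDC-KO and wild type.

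Counted by comparison, a call needed a limma adjusted p under 0.05 and a change of 2-fold or more. Between HDC-KO and wild-type bone marrow 2 of the 10 genes were called, beside 3.82% of all tested genes. Tlr7 was higher, as were 1.8% of all tested genes, and Cd14 lower, as were 2.02%. The count was 1 without HDC-KO bone marrow array 2 or with probe sets averaged. Between the pool labelled HDC-KO tumor and wild-type tumor 2 were called, beside 26.0% of all tested genes, a share near this background. Tlr7 was higher, as were 15.5% of all tested genes, and Lbp lower, as were 10.5%. Tumor against bone marrow gave 6 calls in HDC-KO, beside 36.5% of all tested genes. Tlr1, Tlr6, Tlr7, Cd14 and Myd88 were higher, as were 21.1% of all tested genes, and Lbp was lower, as were 15.4%. In wild type tumor against bone marrow gave 5 calls, beside 16.4% of all tested genes. They were Tlr1, Tlr4, Tlr6, Tlr7 and Cd14, all higher, as were 11.6% of all tested genes. The count was 3 with probe sets averaged, and 4 without wild-type bone marrow array 1 or wild-type tumor array 1. At an adjusted p under 0.05 whatever the size, 6 of the 10 genes differed in the bone marrow genotype comparison, beside 21.2% of all tested genes, and 8 in the tumor one, beside 72.8%. Between tumor and bone marrow 10 of 10 differed at that p in HDC-KO, beside 80.7% of all tested genes, and 8 in wild type, beside 56.5%. The comparisons share pools, so their values are set side by side without a test across them.

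Whether the genotype difference itself differed between tumor and bone marrow was tested as an interaction. It was called for 3 of the 10 genes, Lbp, Tlr7 and Cd14, beside 28.5% of all tested genes, a share near this background, with 16.8% higher and 11.7% lower. At an adjusted p under 0.05 whatever the size it was 7 of the 10, beside 65.8% of all tested genes. For Lbp the genotype difference in tumor minus that in bone marrow was -3.66 ± 0.28 (log2, SE, limma adjusted p = 8.69e-05). For Tlr7 it was 1.05 ± 0.146 (adjusted p = 0.00109), which became 0.97 without tumor array 1 of the pool labelled HDC-KO, wild-type tumor array 2 or HDC-KO bone marrow array 1, and 0.95 without wild-type bone marrow array 2, each under the threshold. Cd14 gave 1.13 ± 0.214 (adjusted p = 0.00412), set by 0.01 in tumor and -1.12 in bone marrow, and 0.88 without HDC-KO bone marrow array 2. Tlr1 gave 0.77 ± 0.281 (adjusted p = 0.0512). It became 1.11, a call, without wild-type bone marrow array 1 and 0.43 without array 2 of that pool, which read 4.35 and 5.03, around background. Among the other genes the value was 0.49 for Tlr13, 0.36 for Tlr2, 0.32 for Tlr6 and 0.12 for Ly96, each under the threshold.

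Markers of other cells moved in the same comparisons. In linear units, the summed level of 16 measured monocyte and macrophage markers was 50775 to 52546 per array in the pool labelled HDC-KO tumor and 30084 to 31053 in wild-type tumor. In bone marrow it was 13600 to 14255 in the HDC-KO pool and 13069 to 13298 in the wild-type pool, with 7 and 9 of the 16 under log2 5, C1qa, Mertk and Fcgr1 among them in both. A single marker, Cd9, made up most of the bone marrow sums, at 13.25 to 13.35 there, and was lower in tumor, at 12.58 to 13.09. Of the 16, 10 were higher in the pool labelled HDC-KO tumor than in wild-type tumor, beside 15.5% of all tested genes. Against bone marrow 15 were higher in tumor in HDC-KO, beside 21.1%, and 15 in wild type, beside 11.6%. Intestinal epithelial markers summed to 39366 to 41605 in the pool labelled HDC-KO tumor and 7589 to 7705 in wild-type tumor. Their sums were 257 to 277 in HDC-KO and 249 to 290 in wild-type bone marrow, where 15 of 16 lay under log2 5. Granulocyte precursor markers summed to 58678 to 60332 in the pool labelled HDC-KO tumor, 86435 to 89753 in wild-type tumor, 103557 to 104255 in HDC-KO bone marrow and 108619 to 108741 in wild-type bone marrow. Camp, Ltf and Ngp, at 13.83 or more on every array, made up most of each sum. Of the 10 markers 7 were called lower in the pool labelled HDC-KO tumor than in wild-type tumor, beside 10.5% of all tested genes. Mpo was 33.7-fold and Fcnb 16.9-fold lower there. Against bone marrow 7 were lower in tumor in HDC-KO, beside 15.4%, and 5 in wild type. In that wild-type comparison 16.4% of all tested genes were called in either direction and 11.6% higher. Between the bone marrow pools limma called 0, with 4 at an unadjusted p under 0.05. Markers of B and plasma cells summed to 42877 to 43376 in the pool labelled HDC-KO tumor, 27167 to 27656 in wild-type tumor, 1103 to 1122 in HDC-KO bone marrow and 4405 to 4531 in wild-type bone marrow. The immunoglobulin genes Ighm, Igha and Jchain made up most of each sum. Of 5 tested, these 3 were called lower in HDC-KO than in wild-type bone marrow, beside 2.02% of all tested genes. Cd79b was called higher, beside 1.8%, at 6.96 and 6.92 against 5.41 and 5.75. MHC class II and dendritic markers summed to 22646 to 23146 in the pool labelled HDC-KO tumor, 5388 to 5635 in wild-type tumor, 201 to 214 in HDC-KO bone marrow and 254 to 257 in wild-type bone marrow, with 9 of 11 under log2 5 in each bone marrow pool. Between the bone marrow pools 4 of the 16 macrophage markers were higher and 1 lower in HDC-KO, beside 1.8% and 2.02% of all tested genes. Of 8 tested markers of basophils, mast cells and eosinophils 5 were lower, beside the same 2.02%. The last list summed to 836 to 845 in HDC-KO and 1839 to 2014 in wild-type bone marrow. The 8 measured T and NK cell markers summed to 3313 to 3346 in the pool labelled HDC-KO tumor, 4379 to 4606 in wild-type tumor, 6032 to 6132 in HDC-KO bone marrow and 772 to 1061 in wild-type bone marrow. Among them Cd3d, a chain of the T cell receptor complex, was 28.8-fold higher and Nkg7, a granule protein of cytotoxic cells, 2.08-fold lower in HDC-KO than in wild-type bone marrow, while Cd3e, Cd4 and Cd8a were under log2 5 in all 4 pools. Cd3d made up most of the sums in wild-type tumor and in HDC-KO bone marrow. Between the tumor pools Cd3d was 3.38-fold lower with the HDC-KO label, but Gzma, a granzyme, was 11.3-fold higher. Of 5 tested markers of this list, 3 were called higher there and 1 lower, beside 15.5% and 10.5% of all tested genes. Erythroid markers summed to 783 to 825 in the pool labelled HDC-KO tumor, 170 to 173 in wild-type tumor, 32 to 40 in HDC-KO bone marrow and 64 to 67 in wild-type bone marrow. All 5 measured ones averaged below background in HDC-KO bone marrow, 4 in each wild-type pool and 3 in the tumor pool labelled HDC-KO. The tumor sums rest mainly on Slc4a1, at 9.52 with the HDC-KO label and 7.18 in wild type. Slc4a1 averaged 5.48 in wild-type and 3.68 in HDC-KO bone marrow. Of 12 fibroblast and endothelium markers 11 lay under log2 5 in each of the 4 pools. The part of these cells in the values of Tlr1, Tlr6, Tlr7, Cd14, Lbp and Myd88 was not tested.

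Likeness of pattern was measured by centring each gene on its mean over the 4 pools and taking the root mean square difference of pool means, which is a description over 4 points. Lbp lay closest to Hmmr, which encodes a hyaluronan-binding spindle protein, Cdkn3, a phosphatase of cell cycle kinases, and Kntc1, a kinetochore protein, at 0.0887, 0.133 and 0.146 log2 units. Hmmr averaged 4.42 in the pool labelled HDC-KO tumor, against 8.54 in wild-type tumor, 8.46 in HDC-KO bone marrow and 8.82 in wild-type bone marrow. Of 12 tested cell cycle genes, 11 were lower in the pool labelled HDC-KO tumor than in wild-type tumor, beside 10.5% of all tested genes. Limma called 0 of the 12 between the bone marrow pools or between wild-type tumor and bone marrow, with 1 and 11 at an unadjusted p under 0.05. Their summed level was 6800 to 7184 in the pool labelled HDC-KO tumor and 26543 to 27168 in wild-type tumor. In bone marrow it was 33110 to 33215 in HDC-KO and 33499 to 33649 in wild type. Its part in the fall of Lbp was not tested.

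Cd14 lay closest to Egr2 and Atf3, transcription factors induced early on stimulation, and to the chemokine Ccl4, at 0.21, 0.231 and 0.246 log2 units. Tlr1 lay closest to Sdc4, a heparan sulfate proteoglycan, Ccl24, an eosinophil chemokine, and the immunoglobulin light chain Igk, at 0.0581, 0.0606 and 0.126. Each of these 3 averaged under log2 5 in both bone marrow pools, as Tlr1 did. Egr2, Atf3 and Ccl4 also averaged under log2 5 in both bone marrow pools, at 2.45 to 4.44, where Cd14 was measured at 7.23 in HDC-KO and 8.35 in wild type, so their distances rest partly on values under background. Tlr7 lay closest to Pde4dip at 0.138, Perp, a gene of desmosomes, at 0.16 and the prion protein gene Prnp at 0.173. Tlr2 lay closest to Fabp5, a fatty acid carrier, at 0.0715, and next to Clec4e, the receptor Mincle, at 0.09 and Slc16a3, a lactate transporter, at 0.0964. For Tlr4 the nearest were Hs2st1 at 0.0775, the interleukin 1 receptor antagonist Il1rn at 0.0992 and Apool at 0.106. Tlr6 lay closest to Tnfrsf13b, the receptor TACI, at 0.0488, then Marchf3 at 0.0553 and Sec24d at 0.0777. Myd88 lay within 0.0476 of Usp36, Tpd52 and Slc33a1. Hmmr, Kntc1, Perp, Hs2st1, Apool, Marchf3, Sec24d and Usp36 likewise averaged under log2 5 in at least 1 pool. Tlr13 and Ly96 ranged over less than 1 log2 unit and were not set against other genes.

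**Figure D4:**
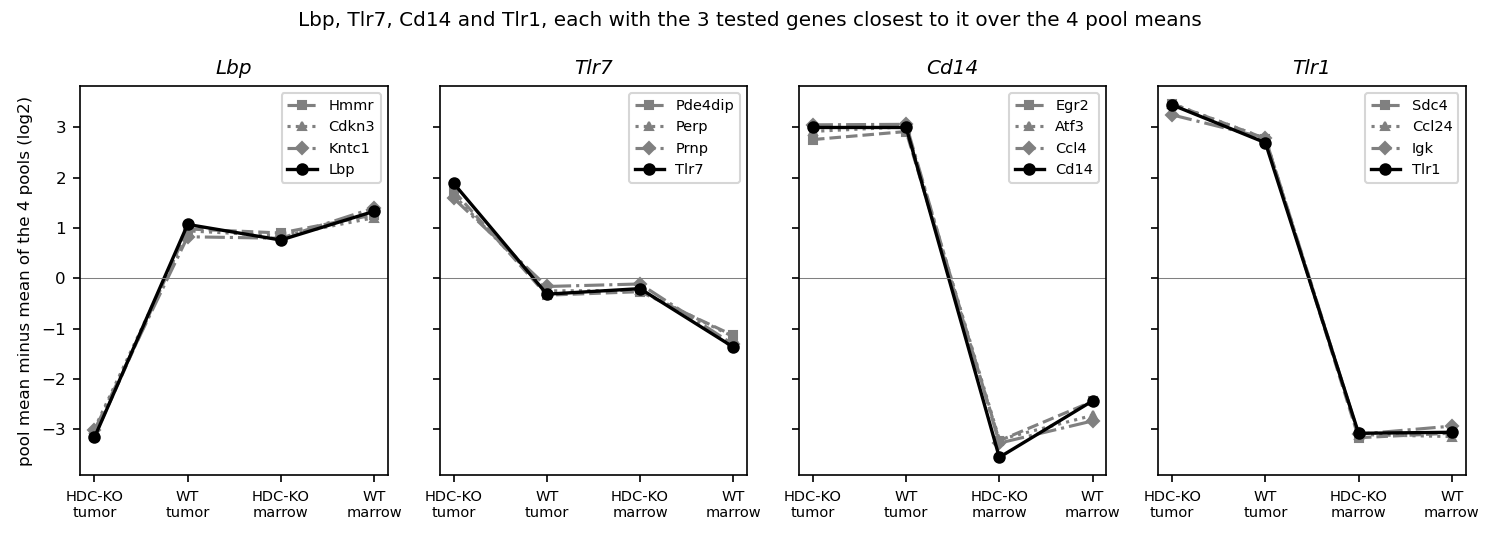
Pool means of Lbp, Tlr7, Cd14 and Tlr1 (black) and of the 3 closest genes to each (grey), less the mean of the 4 pools, in log2 units (vertical axis). Lbp and Hmmr, Cdkn3 and Kntc1 drop in the pool labelled HDC-KO tumor, while Cd14 and Tlr1 follow their neighbours in the step between tumor and bone marrow. The grey genes were picked for closeness over these same 4 pool means, so the likeness follows from the choice.

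The rest of the pathway was read from lists of genes around the receptors. Of the 5 other Toll-like receptors on the array, Tlr3, Tlr5, Tlr8, Tlr9 and Tlr12, none reached log2 5 on 2 arrays, and Tlr3 came closest, at 5.35 and 4.86 in the pool labelled HDC-KO tumor. Among 7 trafficking proteins and chaperones, Nrros, a leucine-rich repeat protein of the endoplasmic reticulum, was 2.16-fold higher in the pool labelled HDC-KO tumor than in wild-type tumor and 3.42-fold higher than in HDC-KO bone marrow. Unc93b1, which carries TLR7 and TLR13 to endosomes, was 2.11-fold higher in tumor than in bone marrow in HDC-KO, with a log2 difference of 0.94 between the tumor pools, under the threshold. Cnpy4 was 2.14-fold lower in HDC-KO than in wild-type bone marrow, a call lost at -1.0 without HDC-KO bone marrow array 1. Tirap, which bridges TLR2 and TLR4 to Myd88, was the 1 gene tested of the 3 further adaptors on the array and was not called, with log2 differences of -0.51 in tumor and 0.32 in bone marrow.

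Of 14 tested kinases and ubiquitin enzymes of the pathway, 0 were called by limma between genotypes in either tissue, with 8 in tumor and 5 in bone marrow at an unadjusted p under 0.05. Map3k8, the kinase TPL2, was higher in tumor than in bone marrow, 3.43-fold in HDC-KO and 3.31-fold in wild type. Ikbkb, a kinase that frees NF-kappa-B, was 2.36-fold higher in tumor than in bone marrow in HDC-KO, a call lost at 0.73 when its probe sets were averaged. Of 10 tested transcription factors, 4 were higher in the pool labelled HDC-KO tumor than in wild-type tumor, led by Irf5 at 5.78-fold, Relb at 3.97-fold and Irf7 at 3.59-fold, beside 15.5% of all tested genes, with a list median of 0.50 beside 0.03 for all tested genes. Irf5 and Irf7 act after Myd88. Between tumor and bone marrow 7 were higher in HDC-KO, with Jun at least 65.3-fold, and 6 in wild type, with Atf3 at least 36.0-fold. Of all tested genes 21.1% and 11.6% were higher there. In bone marrow 1 of the 10, Fos, was called, 6.90-fold lower in HDC-KO, beside 2.02% of all tested genes called lower.

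Most tested genes known to be induced by lipopolysaccharide were higher in tumor than in bone marrow. Of 24 on the array 19 were tested, and Nos2, Il12b, Il10, Ptges and Ptx3 were not, being under log2 5 on every array. Il1a, Il6, Cxcl1, Ccl3, Ccl4, Saa3 and Cd40 were under log2 5 on every bone marrow array and passed the filter through tumor arrays alone. The counts for tumor against bone marrow therefore follow in part from the filter. Of 19 tested, 16 were higher in tumor in HDC-KO and 17 in wild type, beside 21.1% and 11.6% of all tested genes. The list medians were 6.32 and 3.52 log2 units beside -0.02 and -0.03 for all tested genes. With pool means under background raised to 5, the medians were 4.62 and 3.52. Cxcl2, a neutrophil chemokine, was at least 450.0-fold higher in the pool labelled HDC-KO tumor than in HDC-KO bone marrow, and Ptgs2, the inducible cyclooxygenase, was at least 263.0-fold higher in HDC-KO and 276.0-fold in wild type. Between the tumor pools 2 of the 19 were called, both higher in the pool labelled HDC-KO, beside 15.5% of all tested genes called higher. Cd40 was 5.33-fold and the acute phase gene Saa3 3.50-fold higher, and the list median was -0.01.

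In bone marrow 6 of the 19 were lower in HDC-KO than in wild type and 0 higher, beside 2.02% of all tested genes called lower. The median was -0.12 beside 0.00 for all tested genes, and 0.00 with pool means under background raised to 5. Acod1, which makes itaconate, was 8.94-fold lower and Cxcl2 at least 5.46-fold lower. Il1b, which encodes interleukin 1 beta, was 2.12-fold lower, a call lost at -0.99 without HDC-KO bone marrow array 1. With all values raised to log2 5 the count was 3.

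Of 14 tested negative regulators of the pathway, 3 were higher in the pool labelled HDC-KO tumor than in wild-type tumor and 0 lower, beside 15.5% of all tested genes called higher, a share near this background. They were the receptor kinases Mertk at 11.9-fold and Axl at 9.17-fold and Ly86, which encodes MD-1, at 2.54-fold. Mertk also stands in the macrophage marker list. In bone marrow Mertk alone was called, with a log2 difference of 1.08 between means of 4.22 in HDC-KO and 3.14 in wild type, both under background. Between tumor and bone marrow 6 were higher and 1 lower in HDC-KO, beside 21.1% and 15.4% of all tested genes. In wild type 6 were higher, beside 11.6%. Tnfaip3, the ubiquitin-editing enzyme A20, was 17.6-fold higher in tumor than in bone marrow in HDC-KO and 26.8-fold in wild type, and did not pass between genotypes.

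Of 14 tested genes of other bacterial sensing and lipopolysaccharide handling, 6 were higher and 4 lower in tumor than in bone marrow in HDC-KO, and 4 higher and 2 lower in wild type. Of all tested genes 21.1% were higher and 15.4% lower in HDC-KO. In wild type 16.4% were called in either direction and 11.6% higher. The scavenger receptor Msr1 was at least 42.4-fold higher in tumor than in bone marrow in HDC-KO and at least 32.4-fold in wild type. Between the tumor pools Naip5, a flagellin sensor in mice, was 3.04-fold higher in the pool labelled HDC-KO, and Pglyrp1, a peptidoglycan-binding granule protein, 3.29-fold lower. Aoah, the enzyme that deacylates lipopolysaccharide, was at least 2.89-fold lower, a call lost at -0.76 when its probe sets were averaged. In bone marrow 0 of the 14 were called by limma, with 8 at an unadjusted p under 0.05.

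**Figure D5:**
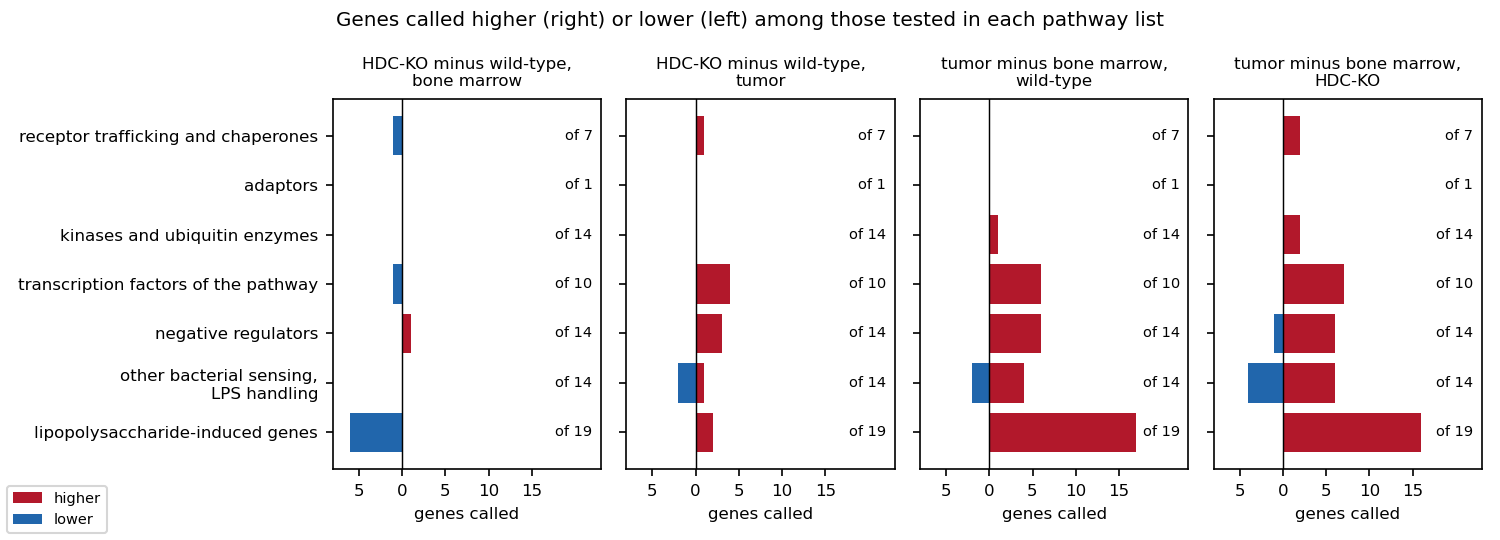
Number of tested genes called higher (bars to the right of 0) and lower (bars to the left) in each pathway list, for the 4 comparisons, with the number tested at the right of each row. Genes induced by lipopolysaccharide give 16 and 17 of 19 higher between tumor and bone marrow, 2 higher between the tumor pools and 6 lower between the bone marrow pools. The 19 are those of 24 on the array that passed the filter, some of them through tumor arrays alone. Of all tested genes 21.1% and 11.6%, 15.5% and 2.02% were called in those directions.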

How the data were processed

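RNA of 8 arrays in 4 groups was measured as biotin-labelled cRNA on Affymetrix arrays. The deposited log2 values of the authors were made with GCRMA, a method of background correction, normalization and probe summary, according to the submitters' processing notes. That they are log2 was judged from their range. GCRMA's version is not given in the sources used.

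Gene names came from the platform annotation, in which 34958 probe sets had 1 symbol, 932 several and 9211 none. Groups came from the sample titles. Limma 3.58.1 under R 4.3.3 fitted all 8 arrays as 4 groups (residual degrees of freedom 4, prior 2.14), over the 8174 genes with 2 or more arrays at or above log2 5, and also over 13505 probe sets. Calls were made at an adjusted p (Benjamini-Hochberg) under 0.05 with a log2 difference of 1 or more in size. Where a pool mean lay under log2 5 the mean was set to 5 and the fold is a bound, and none is given where both did. The fit was tested on simulated data. Errors of differences are limma's standard errors. Levels of different genes are not compared, since probe sets differ in brightness.

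The 10 genes and all lists were chosen with earlier results of these data known. All 10 genes are given in every comparison. From each pathway list, up to 3 called genes per comparison with the largest difference after raising could be named, from each marker list up to 2, and for genes ranging over at least 1 log2 unit the 3 nearest in pattern. Further marker genes, Tirap, Tlr3, Unc93b1 in tumor and the array values of Itgam were named after their values were seen. Some list genes were not analysed here. The results were recomputed without a filter, with one at log2 7, with low values set to log2 5, after quantile normalization or median centring, with probe sets averaged, with _x_at and _s_at probe sets dropped, with a trended and robust variance, on the compared groups alone, with the replicate number as a block, and with each array left out. For the pathway lists and Hdc these were added after the data had been seen.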

Additional observations from a re-analysis of the deposited data

Results flagged for a closer look

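For 3 of the 10 genes the difference between HDC-KO and wild type was called as unequal in tumor and bone marrow by the interaction test of limma, beside 28.5% of all tested genes, a share near this background. At an adjusted p under 0.05 whatever the size it was 7 of the 10, beside 65.8%. Lbp differed by -3.66 on the log2 scale, from a genotype difference of -4.23 in tumor and -0.57 in bone marrow. Tlr7 differed by 1.05, from 2.20 in tumor and 1.16 in bone marrow, with the same direction in both tissues, and the call was lost, at 0.95 to 0.97, without any 1 of 4 arrays. Cd14 differed by 1.13, from 0.01 in tumor and -1.12 in bone marrow, and by 0.88, under the threshold, without HDC-KO bone marrow array 2. Hdc differed by -0.21 between the tumor pools, so the tumor side of each rests on that label.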

How the results depend on the processing

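Each group is treated as 1 pool, as the labels state for tumor alone, so precision is read as technical spread. With 2 arrays a pool, calls near 2-fold are open to a single array. Of 890 values of the 10 genes under the alternatives, 866 kept their direction and side of the threshold. In bone marrow, HDC-KO minus wild type, Tlr1 turned to 0.02 under quantile normalization and ran over -0.36 to 0.32 as arrays were left out, and Tlr4 to -0.00417 as the mean of probe sets. Between the tumor pools Tlr4 turned to 0.01 under quantile normalization and ran over -0.04 to 0.03 as arrays were left out, with 0.00169 without HDC-KO tumor array 1. There Cd14 turned to -0.02 under quantile normalization and -0.01 under median centring and ran over -0.03 to 0.04 as arrays were left out. Tlr13, tumor minus bone marrow in wild type, ran over -0.08 to 0.02. All of these were differences without a call. The count of the 10 genes called in bone marrow was 1 with the mean of probe sets, against 2, and that between wild-type tumor and bone marrow was 3, against 5. The calls lost were Tlr7 at 0.71 in bone marrow, and Tlr4 at 0.69 and Tlr7 at 0.62 between wild-type tumor and bone marrow. Why the probe sets of these genes differ was not tested. Leaving out each array gave 1 to 2 of the 10 called in bone marrow, 2 to 2 in tumor, 6 to 6 for tumor against bone marrow in HDC-KO, 4 to 5 in wild type and 2 to 4 for the interaction. Among all tested genes it gave 286 to 311 calls in bone marrow, 2122 to 2140 in tumor, 2986 to 3011 for tumor against bone marrow in HDC-KO, 1333 to 1344 in wild type, and 2306 to 2348 for the interaction. With the mean of probe sets the median of all genes between tumor and bone marrow in HDC-KO was -0.112. Same-numbered arrays share only a number, since their deviations correlated at -0.0147 to 0.0575, and with the replicate number as a block 2, 2, 6 and 5 of the 10 genes were called in bone marrow, in tumor, and for tumor against bone marrow in HDC-KO and wild type, as without it. The interaction was not run on only the groups compared.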
